A study of Homo sapiens with 8 samples.

Results

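The carcinoembryonic antigen-related cell adhesion molecules CEACAM1, CEACAM5, CEACAM6 and CEACAM7 were followed through all probes that name them on the arrays, which were 5 of 22184 probes, for 4 of 16578 named genes. The genes were selected on the measured difference between AC133 high and AC133 negative cells of the colon line, so that difference is given for them as a description and carries no test. CEACAM1 has 2 probes, ILMN_1716815 and ILMN_1664330, which are kept apart throughout because they gave different readings. CEACAM5 (ILMN_1670959), CEACAM6 (ILMN_1712522) and CEACAM7 (ILMN_1660041) have 1 probe each.

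The cells were Caco2, an adherent epithelial line from a human colorectal adenocarcinoma, and WM115, a human melanoma line. The AC133 antibody binds an epitope of CD133, the product of PROM1, and flow sorting gave 4 groups of 2 samples: Caco2 AC133 high, Caco2 AC133 negative, WM115 AC133 high and WM115 AC133 negative, where high means the brightest 10% of the stained cells. All Caco2 cells, high and negative alike, descended from clones infected at passage 10 with a lentiviral reporter, a green fluorescent protein under the promoter of mouse Melk, and the labels do not say which of the clones entered which sort. The labels name no reporter for WM115, and each line was sorted 2 times, so line and reporter cannot be told apart in a comparison of the lines.

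CEACAM proteins are members of the immunoglobulin superfamily that sit at the cell surface and bind each other and themselves across neighbouring cells. CEACAM1 spans the membrane, and its long form carries inhibitory tyrosine motifs in the cytoplasmic tail that recruit phosphatases such as the product of PTPN6. CEACAM5 (the carcinoembryonic antigen itself, a serum marker of colorectal cancer), CEACAM6 and CEACAM7 are held in the outer leaflet by a glycosylphosphatidylinositol (GPI) anchor and are found on colon epithelium, and CEACAM1 is also known from melanoma cells.

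The genes lie on the long arm of chromosome 19. In the RefSeq annotation of GRCh38.p14, CEACAM7, CEACAM5 and CEACAM6 are consecutive protein-coding genes, with CEACAM4 before and CEACAM3 after them, while CEACAM1 lies farther along, next to CEACAM8 and the pregnancy-specific glycoprotein (PSG) genes. The 250 bases before each annotated start are shown because the 4 genes gave different patterns over the lines. They are at chr19:42528482-42528731 on the minus strand for CEACAM1, chr19:41708376-41708625 on the plus strand for CEACAM5, chr19:41755280-41755529 on the plus strand for CEACAM6 and chr19:41688271-41688520 on the minus strand for CEACAM7. Each is written 5′ to 3′ along the gene from RefSeq, in lower case, with capitals for letters that match one of the searched motifs.
CEACAM1: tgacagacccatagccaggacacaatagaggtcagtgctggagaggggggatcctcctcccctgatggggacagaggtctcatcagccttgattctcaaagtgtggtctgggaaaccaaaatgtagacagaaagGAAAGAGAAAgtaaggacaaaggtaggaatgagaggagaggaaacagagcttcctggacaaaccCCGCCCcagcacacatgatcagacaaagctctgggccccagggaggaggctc
CEACAM5: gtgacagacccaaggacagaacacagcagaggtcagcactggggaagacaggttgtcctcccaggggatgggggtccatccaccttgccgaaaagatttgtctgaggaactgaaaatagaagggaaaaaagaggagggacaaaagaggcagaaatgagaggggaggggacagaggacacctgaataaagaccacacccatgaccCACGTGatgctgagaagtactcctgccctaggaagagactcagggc
CEACAM6: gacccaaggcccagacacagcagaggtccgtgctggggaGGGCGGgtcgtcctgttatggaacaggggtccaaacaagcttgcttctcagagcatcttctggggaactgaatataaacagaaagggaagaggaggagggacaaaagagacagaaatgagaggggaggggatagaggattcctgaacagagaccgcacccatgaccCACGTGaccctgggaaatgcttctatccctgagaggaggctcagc
CEACAM7: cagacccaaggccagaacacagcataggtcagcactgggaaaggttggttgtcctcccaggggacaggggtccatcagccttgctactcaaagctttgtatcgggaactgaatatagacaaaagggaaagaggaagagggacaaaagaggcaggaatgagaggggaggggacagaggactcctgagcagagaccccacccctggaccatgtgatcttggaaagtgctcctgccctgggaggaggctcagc
CEACAM5 and CEACAM6 each hold the E-box CACGTG, at bases 46 to 41 and bases 45 to 40 before the start, and CEACAM1 and CEACAM7 do not hold these letters in this window. The E-box is the type of sequence that the upstream stimulatory factors USF1 and USF2 bind. The GC box GGGCGG lies on the minus strand of CEACAM1 at bases 52 to 47 and on the plus strand of CEACAM6 at bases 211 to 206. The interferon response element core, which is GAAA, any 2 bases and GAAA, lies in CEACAM1 at bases 116 to 107, and none of the matches overlap. With both strands searched, these letters are held by 6.34%, 42.6% and 3.02% of 35116 RefSeq promoters of the same length, in the order E-box, GC box, interferon element. Aligned pairwise, the promoters of CEACAM5 and CEACAM7 were identical over 80.5% of the columns and those of CEACAM6 and CEACAM7 over 79.9%. CEACAM5 and CEACAM6 were identical over 74.6%, and CEACAM1 was identical to CEACAM7 over 71.3%, to CEACAM6 over 68.3% and to CEACAM5 over 65.7%. These are descriptions of the reference sequence, and no binding was measured.

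Levels are given as the deposited signal, the mean brightness of a probe's beads in intensity units on a linear scale, and a probe counts as detected on an array where its deposited detection p-value is under 0.05. Between 53.7% and 59.2% of probes were detected per array, and the dimmest detected probes had 44.5 to 51.9 units. Differences are in log2 units of the background-corrected and quantile-normalized signal, fitted with limma to all 8 arrays, and were tested for 13844 probes that both arrays of at least 1 group detected. Of the 5 CEACAM probes, 4 were among these and the CEACAM7 probe was not. The CEACAM and PSG genes share long stretches of sequence, and which transcripts each probe reads was not tested.

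PROM1 was the most increased probe in AC133 high cells of both lines, by 18.1-fold in Caco2 and by 12.1-fold in WM115. Of 10 colon epithelial markers, 8 to 9 were detected on the Caco2 arrays and 1 to 2 on the WM115 arrays, while 6 to 7 of 7 melanocyte lineage markers were detected on the WM115 arrays and 1 to 2 on the Caco2 arrays. The array of WM115 AC133 negative cells from sort 2 stood apart, with 175 probes at least 2-fold above the highest and 37 at least 2-fold under the lowest of the other 3 arrays of its line. The same counts for the other 7 arrays were 0 to 18 above and 0 to 49 under.

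CEACAM1 was the member present in both lines. Its probe ILMN_1716815 read 261 and 195 units in Caco2 AC133 high cells, against 95.8 and 75.7 units in Caco2 AC133 negative cells. In WM115 the same probe read 3016 and 2550 units in AC133 high cells, against 1513 and 904 units in AC133 negative cells. It was detected on all 8 arrays, both high samples lay above both negative samples in each line (as for 18.4% of all tested probes in Caco2 and 15.3% in WM115), and every WM115 array lay above every Caco2 array. The second CEACAM1 probe, ILMN_1664330, read 47.3 and 44.0 units in Caco2 AC133 high cells, against 46.0 and 47.0 units in Caco2 AC133 negative cells. In WM115 this probe read 920 and 895 units in AC133 high cells, against 400 and 190 units in AC133 negative cells. It was detected on none of the Caco2 arrays, with detection p-values of 0.0607 to 0.103, and on all WM115 arrays.

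CEACAM6 showed the opposite distribution over the lines. Its signal was 1201 and 1045 units in Caco2 AC133 high cells, against 303 and 395 units in Caco2 AC133 negative cells. In WM115 it was 33.2 and 29.7 units in AC133 high cells, against 30.4 and 29.3 units in AC133 negative cells. CEACAM6 was thus detected on all 4 Caco2 arrays and on no WM115 array. In Caco2, where the contrast chose the gene, both high samples lay above both negative samples, as for 18.4% of all tested probes.

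CEACAM5 had a dim signal of the same shape. It read 89.7 and 84.6 units in Caco2 AC133 high cells, both detected, against 47.7 and 60.0 units in Caco2 AC133 negative cells, of which only the second was detected. In WM115 it read 39.3 and 41.2 units in AC133 high cells, against 39.2 and 35.0 units in AC133 negative cells, none of them detected. CEACAM7, which is known from mature colon surface epithelium, was detected nowhere, with 42.5 and 40.5 units in Caco2 AC133 high cells against 36.3 and 34.7 units in Caco2 AC133 negative cells. Its WM115 signals were 35.6 and 36.1 units in AC133 high cells and 35.5 and 34.5 units in AC133 negative cells. A level of CEACAM7 below the array's background cannot be told from none.

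In Caco2 the contrast between AC133 high and AC133 negative cells was the one that chose the genes. The fitted differences were 1.74 ± 0.28 log2 units (SE, n = 2 each) for CEACAM6, 1.73 ± 0.29 for CEACAM1 probe ILMN_1716815 and 1.15 ± 0.23 for CEACAM5, which correspond to 3.35-fold, 3.32-fold and 2.21-fold. In sorted bulk samples, more cells with a transcript and more transcript per cell cannot be told apart. Within sorts 1 and 2 the differences were 1.96 and 1.52 for CEACAM6, 1.53 and 1.94 for CEACAM1 and 1.19 and 1.11 for CEACAM5. CEACAM5 in the negative cells of sort 1 was not detected, so its difference in that sort is set partly by background. These 3 of the 4 tested probes were at least 2-fold higher in the high cells, where 0.780% of all tested probes were, and nothing is read from that share because the contrast chose them. The probe ILMN_1664330 of CEACAM1 differed by 0.02 log2 units with no detected signal in either group, so it bears no measure of CEACAM1 in Caco2. CEACAM7 differed by 0.13 and 0.20 log2 units in the sorts, at signals below background.

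In WM115 the same contrast was not the one used to choose the genes, and it was tested. The genes were chosen with earlier results of these data known. None of the 4 tested CEACAM probes passed limma's adjusted p of 0.05, and 2 of the 4 had an unadjusted p under 0.05, both of them CEACAM1. Over all 13844 tested probes 3 passed (0.0217%), and 642 had an unadjusted p under 0.05, against 1059 in Caco2. CEACAM1 probe ILMN_1664330 was 1.78 ± 0.35 log2 units higher in AC133 high cells (SE, n = 2 each; 95% interval 0.98 to 2.57), which is 3.43-fold, with a limma adjusted p of 0.325. Probe ILMN_1716815 was 1.23 ± 0.29 log2 units higher (95% interval 0.56 to 1.90), which is 2.34-fold, with a limma adjusted p of 0.512. Both probes of CEACAM1 were higher in both sorts, by 1.21 and 2.35 log2 units for ILMN_1664330 and by 0.93 and 1.53 log2 units for ILMN_1716815. Of all tested probes 25.4% were higher in both sorts, and 0.303% were at least 2-fold higher by the fitted difference, as both CEACAM1 probes were. By size of the difference the probes ranked 4 and 20 of 13844 from the top, with PROM1 first.

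Which AC133 negative array entered the WM115 comparison decided the call on CEACAM1. Without the negative array of sort 2, which stood apart, the differences were 1.13 log2 units for ILMN_1664330 (limma adjusted p 0.322) and 0.75 for ILMN_1716815 (limma adjusted p 1). Without the negative array of sort 1, which leaves the array that stood apart as the lone negative sample, they were 2.42 (limma adjusted p 7.2e-04) and 1.70 (limma adjusted p 0.011), and 249 probes passed over the whole array. The direction was the same in each case. The signal summed over the melanocyte markers was 23438 and 20168 units in WM115 AC133 high cells, against 19865 and 13962 units in WM115 AC133 negative cells. The lowest sum was on the array that stood apart. These sums are of deposited signal before normalization, and the median signal of the WM115 arrays ranged from 53.4 to 58.8 units. PMEL gave the largest part, with 14283 and 12074 units in the high cells against 11587 and 8751 units in the negative cells. Of 7 tested markers 5 had a difference above 0, while TYRP1 (-1.30 log2 units) and S100B (-0.34) went the other way, and none was called. The part of these markers in the CEACAM1 difference was not tested.

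CEACAM5 and CEACAM6 gave no measurable AC133 difference in WM115. They differed by 0.07 log2 units (95% interval -0.46 to 0.60) and by 0.03 log2 units (95% interval -0.61 to 0.66), each with a limma adjusted p of 1, and neither was detected there, so a difference below background would not have been seen.

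**Figure D1:**
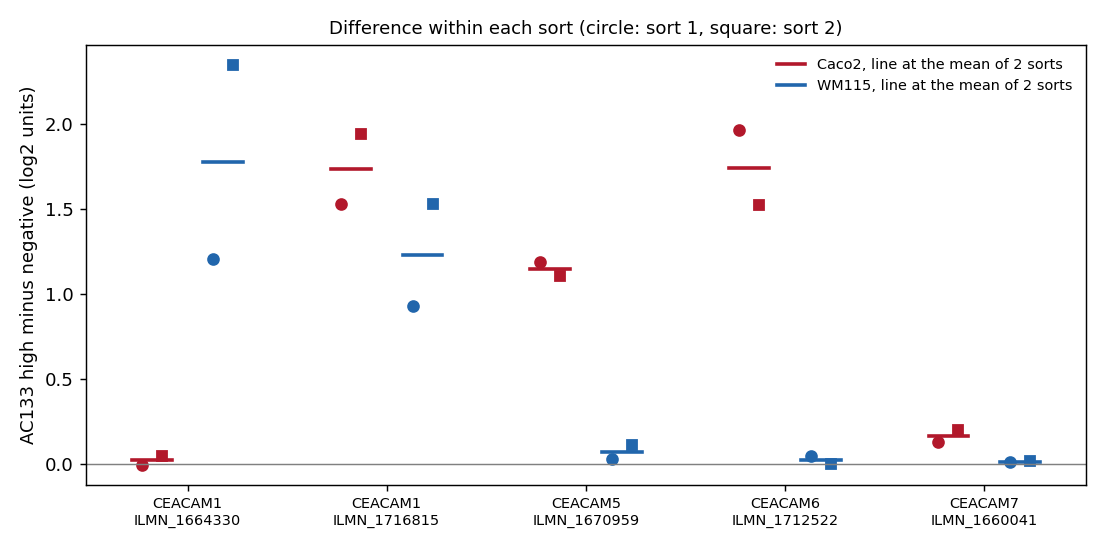
Difference in normalized signal between AC133 high and AC133 negative cells (log2 units) within each sort, for the 5 CEACAM probes, with Caco2 in red left of WM115 in blue, circles for sort 1, squares for sort 2 and a line at the mean of the 2 sorts. CEACAM1 probe ILMN_1716815 is above 0 in all 4 sorts, between 0.93 and 1.94, whereas CEACAM5 and CEACAM6 are above 1 in Caco2 and near 0 in WM115.

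Probe ILMN_1716815 of CEACAM1 had a difference of over 2-fold in each line. Of the 13844 tested probes, 4 were at least 2-fold higher in AC133 high cells of Caco2 and also of WM115 by the fitted difference, and these were PROM1, CEACAM1 probe ILMN_1716815, EPHA4 and EEF1A2. Nothing is read from that count for CEACAM1, since its Caco2 difference was the ground for choosing it. For EPHA4, an ephrin receptor kinase, the log2 difference was 1.31 in Caco2 and 1.34 in WM115 (limma adjusted p 0.214 in WM115). For EEF1A2, a translation elongation factor, it was 1.54 in Caco2 (limma adjusted p 0.634) and 1.36 in WM115. Neither gene was called in WM115, and EEF1A2 was called in neither line. When each single sort had to reach 2-fold, 3 probes were left and CEACAM1 was not among them, since sort 1 of WM115 gave 0.93. Whether the AC133 difference itself differed between Caco2 and WM115 was not tested for the CEACAM probes, because it holds the contrast that chose them.

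**Figure D2:**
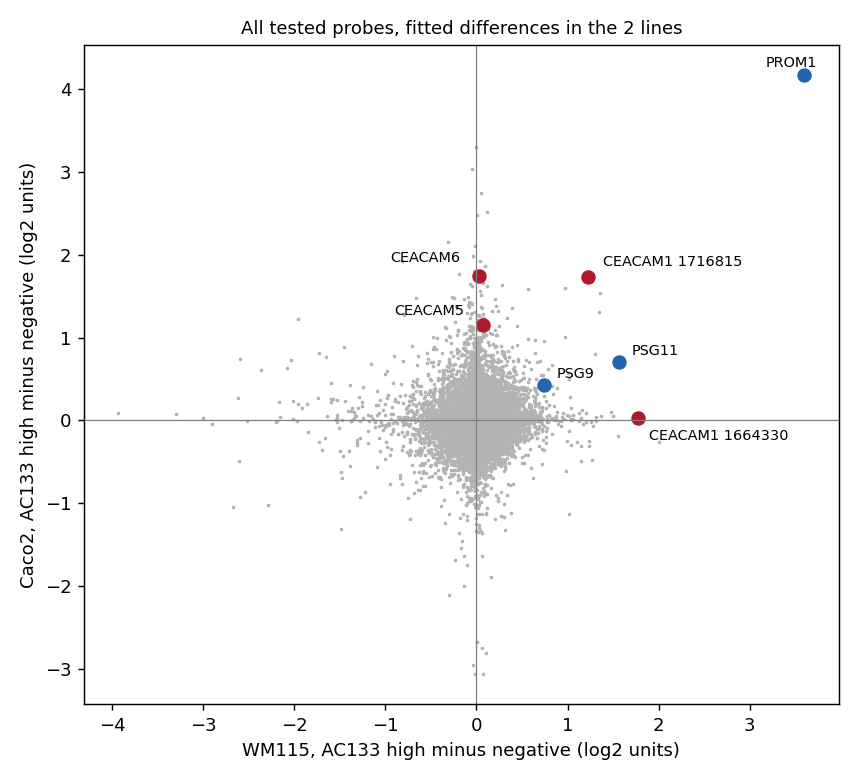
Fitted difference between AC133 high and AC133 negative cells (log2 units) in Caco2 (vertical axis) against WM115 (horizontal axis) for each of the 13844 tested probes in grey, with the CEACAM probes in red and PROM1, PSG11 and PSG9 in blue. CEACAM6 and CEACAM5 lie along the Caco2 axis, CEACAM1 probe ILMN_1664330 along the WM115 axis at 1.78, and CEACAM1 probe ILMN_1716815 at 1.73 in Caco2 and 1.23 in WM115.

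Between the lines, averaged over high and negative cells, the CEACAM probes differed in opposite directions. The contrast was called by limma's adjusted p of 0.05 for all 4 tested probes, and 58.7% of all tested probes passed, 29.6% higher and 29.2% lower in Caco2. That count is no support for the family, because 3 of the 4 passed the detection filter only through the line where they are high: CEACAM5 and CEACAM6 through Caco2, where they were chosen, and ILMN_1664330 through WM115. Their differences are therefore a description, given with no p. CEACAM6 was at least 23.7-fold higher in Caco2 than in WM115 (log2 difference 4.99 ± 0.20, SE, n = 4 each). CEACAM5 was at least 1.80-fold higher in Caco2 (1.13 ± 0.16), with detection on 3 of the 4 Caco2 arrays. CEACAM1 was lower in Caco2, by 14.9-fold for ILMN_1716815, which was detected on all 8 arrays (-3.90 ± 0.21; limma adjusted p 7.2e-07), and by at least 16.8-fold for ILMN_1664330 (-4.18 ± 0.25). An "at least" fold sets the brighter line against the dimmest detected signal on each array of the other line, because the probe was not detected there. No array of one line overlapped an array of the other for these 4 probes, as for 55.5% of all tested probes. CEACAM7, below background in both lines, was not tested.

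Beyond these 4 genes the arrays carry 19 probes for 16 further CEACAM and PSG genes, most of them detected on no array. PSG proteins are secreted relatives made mainly by the placenta. Of the 152 values of these probes over the 8 arrays 26 were detected, while 56.8% of the values of all probes were, and 4 of the genes could be tested (CEACAM4, CEACAM19, PSG9 and PSG11). CEACAM3 and CEACAM8, known from granulocytes, were detected on no array. None of the 4 passed limma's adjusted p of 0.05 for AC133 in either line. At an unadjusted p under 0.05 there were 0 of 4 in Caco2 and 2 of 4 in WM115, namely PSG11 and PSG9, where 1059 and 642 of all 13844 tested probes had one in Caco2 and in WM115.

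PSG11 had an AC133 difference in WM115 close in size to that of CEACAM1. Its probe ILMN_1685312 read 156 and 157 units in WM115 AC133 high cells, against 86.2 and 52.1 units in WM115 AC133 negative cells, a difference of 1.56 ± 0.31 log2 units that ranked 5 of 13844 with a limma adjusted p of 0.325. In Caco2 it read 60.0 and 59.0 units in AC133 high cells, against 42.0 and 48.7 units in AC133 negative cells, which were not detected (0.70 ± 0.31; limma adjusted p 0.657). The high cells lay above the negative cells in both lines, at dim signals in Caco2. A second PSG11 probe, ILMN_1706911, was detected on no array. As for CEACAM1, the WM115 call on PSG11 turned on the negative array: the difference was 1.07 (limma adjusted p 0.687) without that of sort 2 and 2.05 (limma adjusted p 0.0064) without that of sort 1.

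PSG9 read 80.5 and 77.4 units in WM115 AC133 high cells, against 59.1 and 49.8 units in WM115 AC133 negative cells (0.74 ± 0.21 log2 units; limma adjusted p 0.679). In Caco2 it read 50.8 and 53.2 units in AC133 high cells, against 42.8 and 45.9 units in AC133 negative cells (0.42 ± 0.21; limma adjusted p 0.723). Over the lines both were lower in Caco2 than in WM115, with a log2 difference of -1.23 for PSG11 (limma adjusted p 0.0013) and of -0.56 for PSG9. PSG9 passed the detection filter only through WM115, where it is higher, so its line difference is a description with no p. PSG11 and PSG9 shared the direction of CEACAM1 between the lines, and 29.2% of all tested probes were called lower in Caco2. CEACAM4 was dim on all 8 arrays, at 49.8 to 62.6 units, and CEACAM19 was at 45.6 to 52.7 units; their AC133 differences were 0.22 and 0.15 log2 units in Caco2 and 0.31 and 0.08 in WM115.

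**Figure D3:**
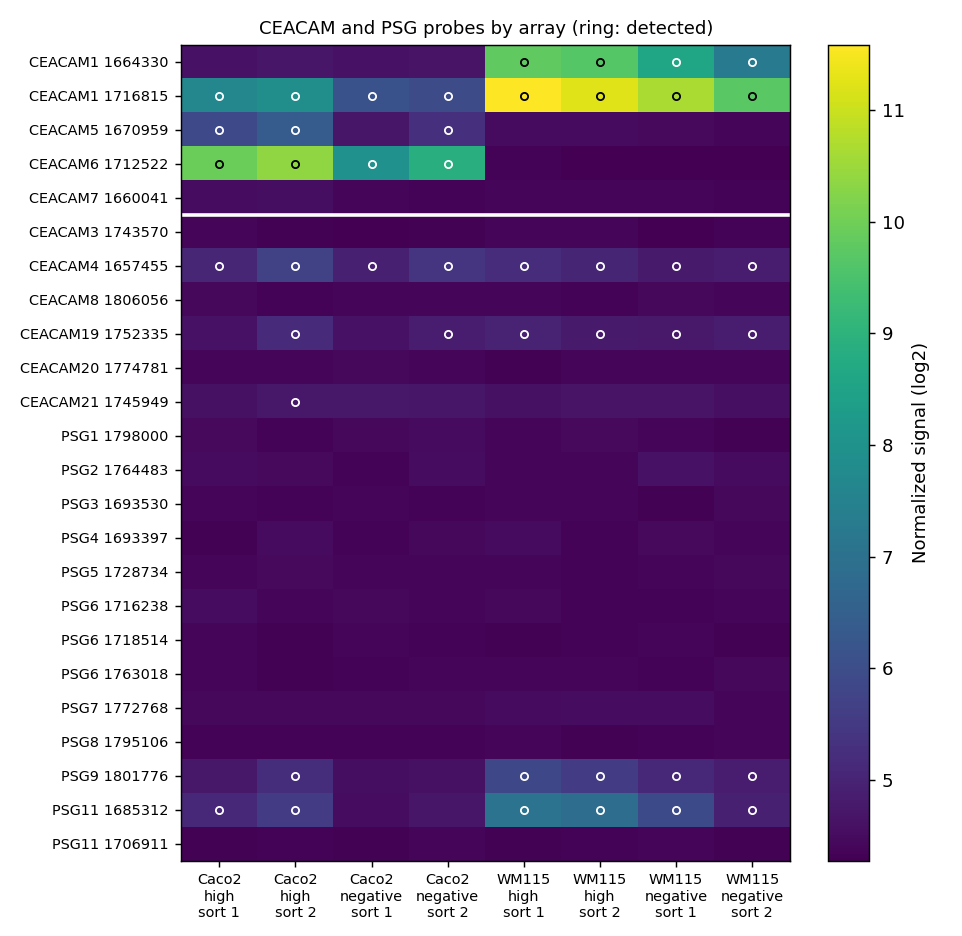
Normalized signal (log2, colour scale) of the 24 CEACAM and PSG probes (rows, by probe number) on the 8 arrays (columns), with a ring where the probe was detected and a white line below the 5 probes of CEACAM1, CEACAM5, CEACAM6 and CEACAM7. Bright cells are those of CEACAM1 in WM115 and CEACAM6 in Caco2, and rings below the white line belong to CEACAM4, CEACAM19, CEACAM21, PSG9 and PSG11.

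The likeness of each tested CEACAM probe to all others was measured as the root mean square difference of the log2 signal over the 8 arrays after centring each probe on its own mean. For CEACAM1 probe ILMN_1664330 the nearest genes were LRGUK (0.32), RAB27A (0.34) and NSG1 (0.38), and for ILMN_1716815 they were ITLN2 (0.51), STOM (0.52) and RAB32 (0.53). For CEACAM5 they were VSNL1 (0.12), SOSTDC1 (0.13) and STEAP2 (0.14), and for CEACAM6 they were GJA1 (0.33), PRSS35 (0.38) and TTR (0.39). The 2 CEACAM1 probes thus had no neighbour in common among their nearest 3. Over the 4 Caco2 arrays alone, with 11078 probes detected on all of them, CEACAM1 probe ILMN_1716815 was nearest to KCNJ8 (0.075), MEP1A (0.11) and PCDH7 (0.13). CEACAM6 was nearest to TFPI (0.15), EEF1A2 (0.15) and EPAS1 (0.17) over the same arrays. The line difference dominates the 8 arrays. On the 4 Caco2 arrays the measure rests on few points and holds the AC133 contrast that chose the genes.

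Among genes tied to CEACAM1 signalling, none of 14 tested passed limma's adjusted p of 0.05 for AC133 in either line (unadjusted p under 0.05 for 4 in Caco2 and for 1 in WM115, beside 1059 and 642 of all 13844 tested probes, against which the unadjusted counts of the further lists stand too). The median difference of these genes was -0.20 log2 units in Caco2 and -0.06 in WM115, against 0.00 and 0.01 over all tested probes. PTPN6, the phosphatase SHP-1 that binds the tail of CEACAM1, differed by -0.43 ± 0.17 in Caco2 (limma adjusted p 0.556), and its other tested probes gave -0.43 and -0.05. SHC1, an adaptor in receptor tyrosine kinase signalling, differed by -0.63 ± 0.21 in WM115 (limma adjusted p 0.849), while its other tested probes gave -0.39 and, with the opposite sign, 0.29. Between the lines 5 of the 14 were higher and 3 lower in Caco2, where 29.6% of all tested probes were called higher and 29.2% lower. PTPN6 was higher in Caco2 than in WM115 by 2.69 log2 units by its brightest probe (limma adjusted p 2.2e-07), and its other tested probes gave 0.81 (limma adjusted p 0.0023) and 0.23 (limma adjusted p 0.116). FYN, a Src family kinase, was lower in Caco2 by both tested probes (log2 differences -2.51 and -4.03; limma adjusted p 2.2e-05 and 4.6e-08). EGFR was at least 5.86-fold higher in Caco2 by its brightest probe, and its 2 other tested probes gave 0.55 and 0.04 log2 units.

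The machinery that makes and attaches GPI anchors, which CEACAM5, CEACAM6 and CEACAM7 need to reach the surface, showed no call for AC133. Of 29 tested genes 0 passed limma's adjusted p of 0.05 in Caco2 or in WM115 (unadjusted p under 0.05 for 0 and for 1), with medians of 0.00 and 0.06 log2 units. Between the lines 9 of the 29 were higher and 10 lower in Caco2, where 29.6% of all tested probes were called higher and 29.2% lower. PGAP2, which acts in GPI lipid remodelling, was higher by 1.53 log2 units (limma adjusted p 3.2e-05), and PIGB, a mannosyltransferase of anchor synthesis, was lower (log2 difference -1.47; limma adjusted p 2.0e-05).

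Other GPI-anchored surface proteins did not move as a group with AC133. Of 26 tested genes 1 rose in Caco2 AC133 high cells and 0 fell, with a median of -0.04 log2 units, and 0 passed in WM115 with a median of -0.03 (unadjusted p under 0.05 for 5 and for 2). The gene that rose was TFPI, the inhibitor of the tissue factor pathway of clotting, by 1.39 ± 0.19 log2 units (limma adjusted p 0.021). Both of its other probes passed too (limma adjusted p 0.036 and 0.026), and the call was lost without either AC133 high array or the sort 1 AC133 negative array of Caco2 and without either AC133 high array of WM115. One of these other probes, ILMN_1662619, had the nearest profile to CEACAM6 over the Caco2 arrays. Nothing further is read from that, because those profiles hold the contrast that chose CEACAM6. Between the lines 11 of the 26 were higher and 8 lower in Caco2, beside 29.6% and 29.2% of all tested probes. Among them were GPC3, a glypican, at least 38.7-fold higher, FOLR1, the folate receptor, at least 6.63-fold higher, and CD109 at least 8.78-fold lower.

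Enterocyte differentiation genes, a list chosen with earlier results of these data known, lay mostly above 0 in Caco2 AC133 high cells. Of 8 tested colon epithelial markers 7 also lay above 0, with a smaller median of 0.11 log2 units and no call. Of 22 tested enterocyte genes 2 rose and 0 fell by limma's adjusted p, where 0.773% of all tested probes passed in either direction. A difference above 0 was found for 19 of them, with a median of 0.46 log2 units against 0.00 over all tested probes. MEP1A, the alpha subunit of the brush border protease meprin A, rose by 1.65 ± 0.15 (limma adjusted p 0.0052), and DPP4, a brush border peptidase, rose by 1.21 ± 0.17 (limma adjusted p 0.021). APOB, an apolipoprotein of chylomicrons, differed by 0.93 ± 0.16 and missed the threshold (limma adjusted p 0.052). In WM115 the median was 0.01 log2 units and 0 genes passed (unadjusted p under 0.05 for 0 as well). The call on MEP1A was lost without either AC133 high array of Caco2, and that on DPP4 without any one of the 4 Caco2 arrays or either AC133 high array of WM115. Between the lines 20 of the 22 were higher in Caco2 and 1 was lower, beside 29.6% and 29.2% of all tested probes. That count is a description too, because genes not detected in WM115, such as APOA1 and DPP4, entered the test only through Caco2. APOA1 was at least 219.8-fold higher and DPP4 at least 15.2-fold higher in Caco2.

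Among epithelial adhesion genes, which share the cell contact with the CEACAM proteins, 1 of 20 rose in Caco2 AC133 high cells and 0 fell, with a median of 0.06 log2 units. CLDN1, a claudin of tight junctions, rose by 1.14 ± 0.16 (limma adjusted p 0.024), a call lost without either AC133 high array or the sort 1 AC133 negative array of Caco2 and without either AC133 high array of WM115. With the sort as a replicate block its limma adjusted p was 0.055. CDH17, the intestinal cadherin, differed by 0.66 ± 0.15 (limma adjusted p 0.138). In WM115 0 of 20 passed (unadjusted p under 0.05 for 1), and CXADR, an adhesion receptor of tight junctions, had the smallest p with 1.04 ± 0.21 log2 units (limma adjusted p 0.362). Between the lines 17 of the 20 were higher in Caco2 and 0 lower, beside 29.6% and 29.2% of all tested probes. That count is a description, because genes not detected in WM115, such as CDH17 and CLDN1, entered the test only through Caco2. The median was 3.61 log2 units, and the higher genes included CDH17 at least 104.5-fold and CLDN1 at least 44.8-fold. CEACAM5 and CEACAM6 went the way of this list between the lines, and CEACAM1 went the other way.

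Regulators described for CEACAM genes or for colon epithelium gave no call for AC133 in 19 tested genes (unadjusted p under 0.05 for 1 in Caco2 and for 2 in WM115). USF2, a factor that binds the E-box printed above, differed by -0.41 ± 0.21 in Caco2 (limma adjusted p 0.743), and its second tested probe gave 0.07, with the opposite sign. CDX2, an intestinal homeobox factor, differed by 0.46 ± 0.19 in Caco2 (limma adjusted p 0.610). SMAD3, a mediator of transforming growth factor beta signalling, differed by -0.80 ± 0.29 in WM115 (limma adjusted p 0.930). Between the lines 8 of the 19 were higher and 7 lower in Caco2, beside 29.6% and 29.2% of all tested probes. CDX2 was at least 20.2-fold and SOX9 at least 18.1-fold higher.

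Markers of other cell types were read beside the Caco2 differences. The goblet cell markers summed to 1745 and 1009 units in Caco2 AC133 high cells, against 814 and 876 units in Caco2 AC133 negative cells, with 2 to 3 of 5 detected. Of these, AGR2 read 656 and 479 units in the high cells against 310 and 323 units in the negative cells. TFF3 overlapped, with 948 and 395 units in the high cells against 363 and 425 units in the negative cells. The blood and granulocyte markers summed to 3553 and 3348 units in Caco2 AC133 high cells, against 5020 and 5592 units in Caco2 AC133 negative cells, with 3 to 5 of 12 detected. LYZ, which encodes lysozyme, made up most of that sum, with 2989 and 2877 units in Caco2 AC133 high cells against 4511 and 5083 units in Caco2 AC133 negative cells. CD14 went the other way, with 127 and 74.7 units in Caco2 AC133 high cells against 75.7 and 59.6 units in Caco2 AC133 negative cells. PTPRC, the leukocyte marker CD45, was detected by 1 of its 3 probes on 1 of the 4 Caco2 arrays. Colon epithelial markers summed to 34085 and 24950 units in Caco2 AC133 high cells, against 28883 and 25507 units in Caco2 AC133 negative cells. Of 8 tested colon epithelial markers, 7 had a fitted difference above 0 in Caco2 and 1 below, with a median of 0.11 log2 units and no call. Among them KRT20 read 283 and 309 units in the high cells against 101 and 163 units in the negative cells. The first 2 sums lay apart between high and negative cells and the third overlapped, but single genes differed from their sums. The sums are of deposited signal before normalization, and the median signal of the Caco2 arrays ranged from 49.5 to 58.2 units. The part of these markers in the CEACAM differences was not tested.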

How the data were processed

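RNA of 8 sorted samples was read on HumanRef-8 version 2 bead arrays, all on the same slide. The deposited file of each array gives the intensity per probe, a detection p-value in steps of 1 in 708 and, per the file headers, the count of beads (median 41 to 42) and the standard error over beads. A joint table of intensity, quantile normalized by the authors per the labels, served as an alternative. Whether background was subtracted is not stated in the sources used here. Intensity was corrected by limma's normexp (limma 3.58.1, R 4.3.3) with an offset of 16 and the negative control level taken from detection p-values, quantile normalized and taken to log2. Symbols were updated through the gene number for 19695 of the 19715 named probes.

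A model of the 4 group means gave each contrast, with Benjamini-Hochberg adjustment over 13844 probes, two-sided; the steps were tested on simulated data. With 2 arrays per group, exact permutation reaches no p under 0.333, so the spread shared over groups (4 residual and 4.35 prior degrees of freedom) carries the tests. Each p-value reflects only how much the sorted samples varied, and the number of arrays limits the precision. Lists used the brightest tested probe of a gene. A list gene given with an "at least" fold passed the detection filter only through the line where it is high. Counts between the lines for lists with such genes are therefore descriptions.

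The members and lists were chosen with earlier results of these data known. Named genes are the members, PROM1, and up to 4 genes per list and comparison by smallest p; EPHA4 and EEF1A2 were named after their values were seen. Sort numbers pair the high and negative samples of a line, per the labels (correlation of deviations 0.281 in Caco2 and 0.177 in WM115). Alternatives were the background correction, scaling, probe filter, arrays fitted, a sort block, leaving out each array, and the methods' t-test. Promoters were aligned with Biopython 1.88 in Python 3.11.15, and figures drawn with matplotlib 3.10.9.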

Additional observations from a re-analysis of the deposited data

How the results depend on the processing

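The line difference of the 4 tested CEACAM probes kept its direction under every alternative that gave a value. For CEACAM1 probe ILMN_1716815, detected on all arrays, it also kept its call. With only probes detected on all 8 arrays, 1 of the 4 stayed in the test, and 42 in place of 100 list genes were called. That filter tested 9803 probes in place of 13844. That filter also left 1 member probe at least 2-fold apart in Caco2, 1 call each in Caco2 and WM115 over all probes and 0 list genes in Caco2. The WM115 members gave 0 calls under each other alternative, and 0 to 2 over the fits that left out 1 array. All-probe calls for AC133 in Caco2 were 107 in the fit on all arrays, 41 after median scaling, 1 with the Caco2 arrays alone, 56 with the sort as a replicate block and 8 to 80 without 1 array. In WM115 they were 3, 0 with its arrays alone, and 3 to 249 without 1 array. With the replicate block, which pairs the high and negative samples, WM115 had 4 calls and the CEACAM1 probes adjusted p-values of 0.208 and 0.239; CLDN1 in Caco2 lost its call and no other named gene changed side.

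List genes called in Caco2 numbered 4, against 7 with an offset of 50, 2 after median scaling, 0 with the Caco2 arrays alone and 0 to 4 without 1 array; in WM115 they numbered 0 to 2 without 1 array. The methods' t-test called 979 probes in Caco2 and 499 in WM115 unadjusted, and 0 and 1 after Benjamini-Hochberg; for list genes it gave 19 and 6 unadjusted and 0 in Caco2 adjusted. Leaving out 1 array turned the sign of small differences: CEACAM19 between the lines ranged over -0.15 to 0.10 (with 0.03 and 0.015 also above 0), CEACAM4 in Caco2 over -0.10 to 0.54 (with -0.02 also below 0), CEACAM19 in Caco2 over -0.11 to 0.41 and CEACAM6 in WM115 over -0.0065 to 0.058. Why the calls moved was not tested.

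With 2 samples per group, a median standard error of 0.19 log2 units and 1 slide, only large differences could pass. CEACAM7, CEACAM1 probe ILMN_1664330 in Caco2, and CEACAM5 and CEACAM6 in WM115 were below background, where no difference can be read.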
